A study of Mus musculus with 2 samples.

Results

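The miR-29 family comprises the 4 mouse genes Mir29a, Mir29b-1, Mir29b-2 and Mir29c, taken here by gene identity from the 1973 miRNA genes of the count tables. All 4 were found, and 2 of them, Mir29a and Mir29c, were detected, which means at least 10 sense-strand counts in both libraries. In the whole set of 1973 genes, 329 were detected. The data are microRNA sequencing of neural tube, the embryonic tissue that forms brain and spinal cord, from B6NCrl mouse embryos at embryonic day 14.5. Both libraries belong to 1 group without treatment or genetic change. Replicate 1 came from pup 1 of dam 1 and replicate 2 from pup 1 of dam 2. The labels call each sample a single neural tube yet give the sex as a mixture of male and female, so pooling of embryos is not settled. With 1 age and 1 tissue, the design addresses how high the family stood at this stage and how close the libraries of 2 litters were. A change with age could not be measured.

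MicroRNAs are cut from a hairpin precursor, whose arms are called 5p and 3p, and guide silencing complexes to messenger RNAs mainly through the seed, bases 2 to 8. The miR-29 guides lie on the 3p arm. The family is known for repressing collagens and other matrix genes in fibroblasts, DNA methyltransferases, and proapoptotic genes in neurons, and in brain it is known to rise as neurons mature. It is also made in many cells outside the nervous system.

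The mature 3p sequences are shown because they define the family and decide which gene a read can be assigned to. They are RefSeq entries on GRCm38.p6, and capitals mark the seed.
miR-29a-3p: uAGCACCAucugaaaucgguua
miR-29b-3p: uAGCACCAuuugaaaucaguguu
miR-29c-3p: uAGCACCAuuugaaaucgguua
All 3 carry the same seed, and no mature entry of any gene outside the 4 in the RefSeq table had it. With positions counted from 1 at the 5′ end, miR-29a-3p and miR-29c-3p differed at 1 of 22 bases, C10U from miR-29a to miR-29c. From miR-29b-3p to miR-29c-3p, 3 of the first 22 bases differed, A18G, G21U and U22A. The miR-29b arm is 1 base longer, at 23 bases. It ends in the letters AGUGUU, known from work on miR-29b as an element that favours nuclear localisation. Of 1674 distinct mature sequences in the table, 2 ended in these letters (0.119%), and 12 held them anywhere (0.717%), searched on the RNA strand only.

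The Mir29b-1 and Mir29b-2 genes encode the identical 3p sequence. Their hairpins are shown to locate what sets the genes apart, with capitals on the longest stretch that both share.
Mir29b-1 hairpin: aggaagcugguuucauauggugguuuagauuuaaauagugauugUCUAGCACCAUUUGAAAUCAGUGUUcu
Mir29b-2 hairpin: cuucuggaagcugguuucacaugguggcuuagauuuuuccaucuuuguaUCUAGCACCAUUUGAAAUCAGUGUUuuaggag
The shared stretch was 25 bases long and held all of miR-29b-3p. Other pairs shared less: 22 bases for Mir29b-1 and Mir29c, 19 for Mir29b-2 and Mir29c, 14 for Mir29a and Mir29c, and 11 for Mir29a with either miR-29b gene. The 5p arms were distinct in all 4 genes.
miR-29a-5p: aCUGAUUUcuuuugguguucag
miR-29b-1-5p: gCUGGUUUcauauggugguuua
miR-29b-2-5p: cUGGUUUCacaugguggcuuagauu
miR-29c-5p: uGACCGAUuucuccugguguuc
These are shown because they are the arms by which reads of the miR-29b genes can be told apart, with the seed again in capitals. The seeds of the 4 arms all differed. The longest run shared by the 5p arms of Mir29b-1 and Mir29b-2 was 9 bases, and by those of Mir29a and Mir29c 8 bases.

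The genes lie in 2 clusters (GRCm38, the build also called mm10). On the minus strand of chromosome 6, Mir29b-1 (31063023 to 31063093) and Mir29a (31062660 to 31062747) are separated by 275 bases. Mir29a overlapped no other annotated gene, and Mir29b-1 overlapped the long noncoding gene Gm27019 by 2 bases. On the plus strand of chromosome 1, Mir29b-2 (195037040 to 195037120) and Mir29c (195037547 to 195037634) are separated by 426 bases. Both lie within the noncoding host gene A330023F24Rik, where 1 of 4 annotated transcripts holds each hairpin in an exon. The gene Cd46 is annotated across both on the opposite strand, with 1 of its 4 transcripts covering each hairpin by an exon. Counts on the other strand were 0 for every member in both libraries.

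**Figure D1:**
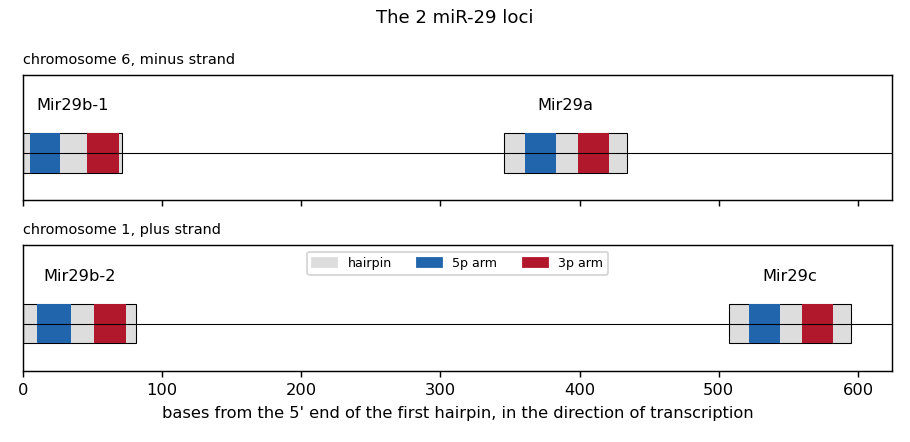
Map of the 2 miR-29 loci to scale, with bases from the 5′ end of the first hairpin on the x axis. Grey boxes are hairpins, blue boxes 5p arms and red boxes 3p arms. Each locus pairs a miR-29b gene with Mir29a or Mir29c, 275 bases apart on chromosome 6 and 426 bases apart on chromosome 1.

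The count tables held 3172235 sense counts on miRNA genes in replicate 1 and 3671915 in replicate 2. Levels are counts per 1000000 of these (CPM). Intervals are exact (Clopper-Pearson) 95% binomial intervals and, like the limit of 3 counts that a count of 0 allows (0.946 CPM in replicate 1 and 0.817 CPM in replicate 2), cover counting error only. Reads that fitted several positions, 32.4% and 33.3% of all reads, were counted for no gene. Mature miRNAs have similar lengths, so levels are not divided by gene length.

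Mir29c and Mir29a, the members with a measurable level, had low counts in the neural tube libraries. Whether counts of different miRNA sequences follow their amounts in the tissue alike was not tested. Mir29c, the higher of them, had 305 counts in replicate 1 and 370 in replicate 2. These were 96.1 CPM (interval 85.7 to 107.6) and 100.8 CPM (90.8 to 111.6), a mean of 98.5 ± 3.27 CPM (SD, n = 2). The values of the litters lay within each other's intervals.

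Mir29a, which differs from Mir29c in its 3p arm at position 10 only, had 193 and 265 counts. Its levels were 60.8 CPM (interval 52.6 to 70.1) and 72.2 CPM (63.7 to 81.4), with a mean of 66.5 ± 8.01 CPM (SD, n = 2). The higher value was in replicate 2. Every Mir29c value lay above every Mir29a value, so their order exceeded the spread over both libraries.

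Mir29b-1 had 4 counts in replicate 1 and 3 in replicate 2, or 1.26 CPM (interval 0.344 to 3.23) and 0.817 CPM (0.168 to 2.39). Mir29b-2 had 3 and 4 counts, or 0.946 CPM (0.195 to 2.76) and 1.09 CPM (0.297 to 2.79). Means were 1.04 ± 0.314 CPM for Mir29b-1 and 1.02 ± 0.102 CPM for Mir29b-2 (SD, n = 2). These genes were at the level of 3 counts, their values overlapped, and no order between them was detectable at this depth. Because their guide arm is identical, a read wholly within the shared 25 bases fits both loci, and reads at several positions entered no gene count. The low values therefore need not reflect miR-29b-3p, and the abundance of miR-29b could not be taken from these tables. How many of the reads at several positions were miR-29b was not tested.

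**Figure D2:**
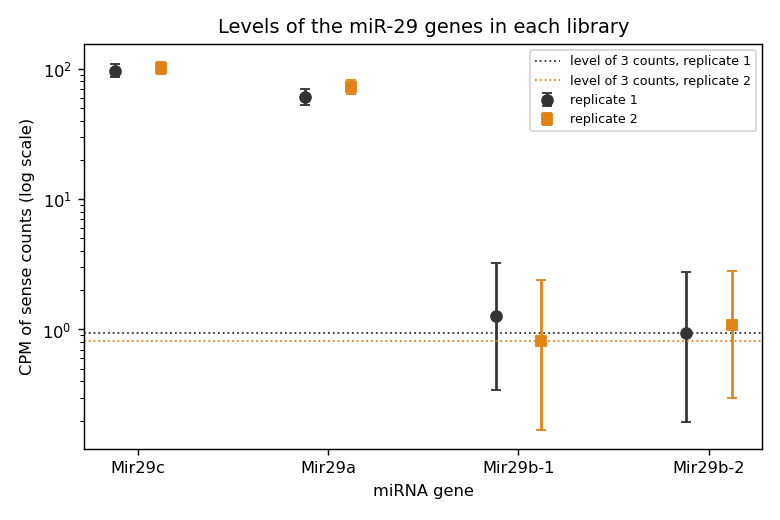
CPM on a log axis for each miR-29 gene, with circles for replicate 1, squares for replicate 2, exact 95% intervals as bars, and dotted lines at the level of 3 counts in each library. Mir29c at 96.1 and 100.8 CPM and Mir29a at 60.8 and 72.2 CPM stand far above Mir29b-1 and Mir29b-2, which lie at the dotted lines.

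Mir29c exceeded Mir29a by a similar factor in both litters. The ratio of their counts was 1.58 in replicate 1 (interval 1.32 to 1.90) and 1.40 in replicate 2 (1.19 to 1.64). The mean was 1.49 ± 0.130 (SD, n = 2), and neither interval reached equality. Summed over each cluster, chromosome 1 exceeded chromosome 6 by 1.56 and 1.40. This ratio is free of the library scaling, since both genes come from the same library. It rests on reads that fitted 1 position, and how the aligner treats a single mismatch is not given in the sources used here. With 2 libraries it is given as a description.

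Each miR-29b gene stood far below its cluster neighbour. Mir29c had 101.7 times the counts of Mir29b-2 in replicate 1 (interval 34.5 to 495.7) and 92.5 times in replicate 2 (35.8 to 341.3). Mir29a had 48.3 times those of Mir29b-1 in replicate 1 (18.5 to 178.9) and 88.3 times in replicate 2 (29.9 to 431.1). Gaps of this size also occurred between other neighbours. Over 92 pairs of adjacent miRNA genes on 1 strand, at most 1000 bases apart and with at least 1 gene detected, the median difference was 4.82 on the log2 scale with a prior count of 0.5. The Mir29b-2 and Mir29c pair differed by 6.41, with 30 pairs further apart. The Mir29a and Mir29b-1 pair differed by 5.84, with 33 further apart. Both genes were detected in 56 of the 92 pairs, so the median covers pairs with an undetected gene too. Most pairs further apart than either miR-29 pair held an undetected gene, as both miR-29 pairs do. This comparison of pairs was chosen after the values were seen.

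The whole family took 0.0159% of sense counts in replicate 1 (interval 0.0146 to 0.0174) and 0.0175% in replicate 2 (0.0162 to 0.0189). The mean was 0.0167% ± 0.00111 (SD, n = 2), from 505 and 642 counts. Mir29c supplied 60.4% and 57.6% of the family's counts and Mir29a 38.2% and 41.3%. The miR-29b genes together supplied the small remainder, 0.792% and 0.467% from Mir29b-1 and 0.594% and 0.623% from Mir29b-2. This sum leaves out reads that fit both miR-29b genes, so it is a share of what was counted and not of miR-29 molecules.

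By mean CPM over 329 detected genes, Mir29c ranked 191 and Mir29a 209. Both lay below the median detected gene, at 170.2 CPM. Mir10b, the gene with the most counts and a miRNA of the Hox clusters, exceeded Mir29c 2195-fold in mean CPM. Ranks by library were close, at 184 and 192 for Mir29c and 207 and 211 for Mir29a.

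The genes closest to the members in level were found by Euclidean distance in log2(CPM + 1) over the 2 libraries. For Mir29c these were Mir488 (99.0 and 105.4 CPM, distance 0.08), Mir129-1 (98.4 and 109.2 CPM, distance 0.12) and Mir3074-1 (90.2 and 89.6 CPM, distance 0.19). Mir488 and Mir129-1 are themselves neuronal genes of the maturation list below. For Mir29a they were Mir6540 (65.6 and 71.9 CPM, distance 0.11), Mir666 (66.8 and 74.6 CPM, distance 0.14) and Mir877 (64.9 and 79.8 CPM, distance 0.17). With 2 libraries this measure reflects level more than pattern.

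**Figure D3:**
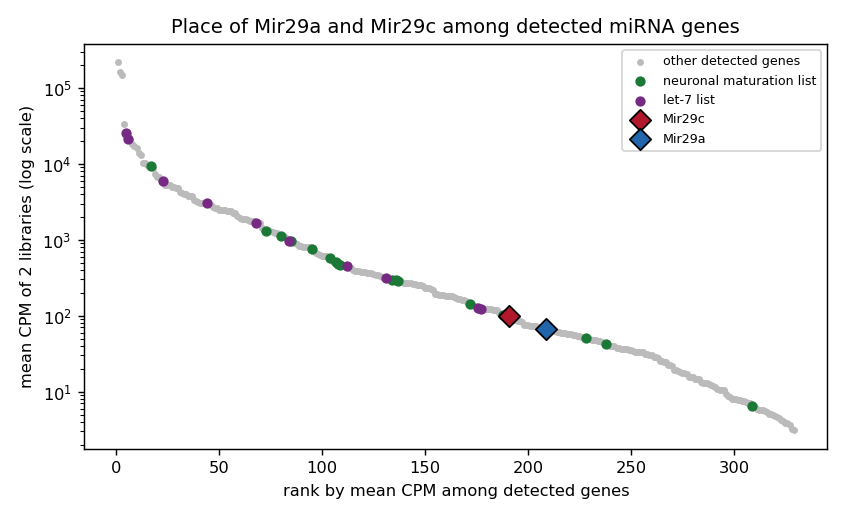
Mean CPM of both libraries on a log axis against rank for the 329 detected genes. Diamonds mark Mir29c (rank 191) and Mir29a (rank 209), green points the neuronal maturation list and purple points the let-7 list. All detected let-7 genes and 15 of the measured neuronal genes stand above Mir29c.

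Counts of other miRNAs that mark neuronal maturation were mostly higher than those of miR-29. Of 22 genes in that list 21 were measured and 18 detected, and 15 lay above Mir29c. Over all 1973 genes, 329 were detected and 190 lay above Mir29c. The 21 measured genes took 1.70% ± 0.0917 of counts (SD, n = 2), 101.7 times the counted share of the miR-29 family. These are sums over 21 genes and over 4, and the median of the 21 measured genes was 291.0 CPM. Mir137, a neuronal gene known from synapse development, reached 9594 and 9321 CPM, 96.1 times Mir29c in mean. Mir128-1, enriched in neurons, had 1751 and 896.3 CPM. Mir138-1, known from dendritic spines, had 852.7 and 1372 CPM. Below both Mir29c and Mir29a stood 6 genes. Mir212, induced by neuronal activity, had 50.2 CPM in mean, and Mir218-1, known from motor neurons, had 42.3 CPM. The gene copies Mir124a-1, Mir124a-2, Mir124a-3 and Mir9-2 had 6.44, 2.40, 1.78 and 1.33 CPM in mean. Mir9 and Mir124a genes are known as copies that encode the same mature miRNA. Mir218-1, Mir128-1 and Mir138-1 each have 1 mature arm identical to that of another gene. Counts of all of these leave out reads at several positions. The place of the Mir9, Mir124a and Mir218-1 genes relative to miR-29 is therefore uncertain.

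The let-7 family, which also accumulates as tissues differentiate, had 10 of 12 genes measured, and all 10 were detected and above Mir29c. Mirlet7g had 28302 and 23292 CPM, 262.0 times Mir29c in mean. Neural progenitor miRNAs had 7 of 8 detected, the same 7 above Mir29c. Mir135b, one of their leading genes, had 5011 and 4512 CPM. A single age does not show where miR-29 stands on its course relative to these lists. In whole tissue, fewer cells of a type and less RNA per cell cannot be told apart.

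MiR-29 is also made by mesenchyme, endothelium and blood cells, which a dissected neural tube can carry along. The blood and macrophage list had 7 of 8 genes measured and 7 detected. It summed to 246.2 CPM in replicate 1 and 393.5 in replicate 2, against 159.2 and 174.8 CPM for the miR-29 family. Mesenchyme and fibroblast miRNAs summed to 6032 and 11062 CPM, with 7 of 9 detected. Endothelial miRNAs summed to 8550 and 17512 CPM, with 3 of 3 measured genes detected. No gene of these 3 lists was at 0 in both libraries, and the lowest, Mir199a-1, had 0 and 2 counts. In CPM, which is scaled by total counts, the sum of each list was higher in replicate 2 by more than the miR-29 family was. Their part in the levels of Mir29a and Mir29c was not tested.

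Between the litters the detected members were close. For ratios, library sizes were adjusted by TMM (trimmed mean of M-values, which lets most genes balance), and replicate 1 was divided by replicate 2 with a prior count of 0.5. Mir29a had a log2 ratio of -0.03 (95% interval -0.31 to 0.24) and Mir29c one of 0.15 (-0.08 to 0.37). The summed family had 0.08 (-0.09 to 0.25). All 3 intervals held 0, and neither gene reached a 2-fold difference. Scaling by total counts moved all ratios by -0.21, to -0.25 for Mir29a, -0.07 for Mir29c and -0.13 for the family. The signs for Mir29c and the family therefore depend on the scaling.

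Of 360 genes that reached 10 counts in either library, 44 (12.2%) lay past 2-fold, against 0 of the 2 members that could be compared. At that background a count of 0 in 2 is no result about the family. Of these 44, 16 were higher in replicate 1 and 28 in replicate 2. The median absolute log2 ratio of all 360 was 0.29, and 342 genes had a larger absolute ratio than Mir29a and 264 a larger one than Mir29c. The miR-29b genes did not reach the count minimum. For description, Mir29b-1 had a log2 ratio of 0.79 (interval -1.72 to 3.61) and Mir29b-2 one of 0.06 (-2.76 to 2.57). Intervals of this width leave any direction undetectable at this depth. With 1 library per dam no p-value over litters can be given, and the intervals compare these libraries only.

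**Figure D4:**
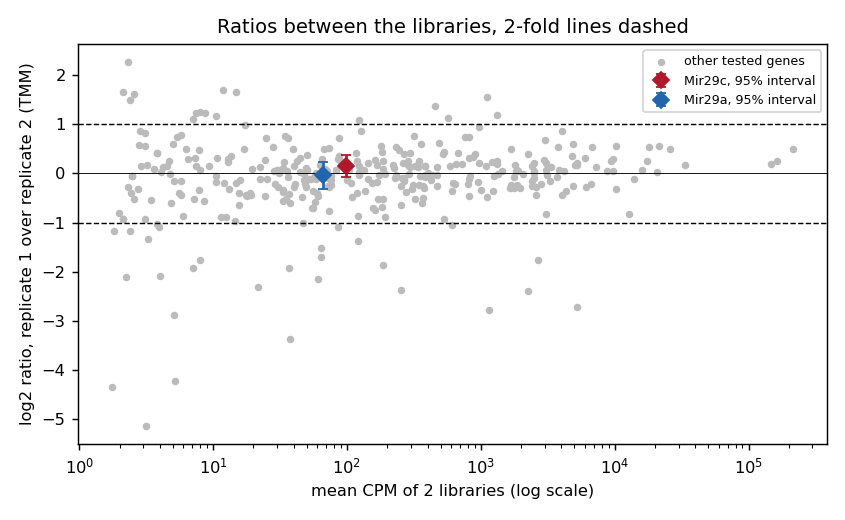
Log2 ratio of replicate 1 over replicate 2 after TMM scaling against mean CPM on a log axis for 360 genes, with dashed lines at 2-fold. Diamonds with 95% counting intervals mark Mir29a (-0.03) and Mir29c (0.15), both near 0 and inside the dashed lines, while 44 genes lie outside them.

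In the lists, the median log2 ratio was 0.25 for neuronal maturation, 0.72 for let-7 and 0.11 for progenitor miRNAs, against 0.06 for the 2 compared miR-29 genes and -0.02 for all 360. Past 2-fold lay 3 of 19 neuronal genes (Mir128-1 and Mir128-2 higher in replicate 1, Mir124a-2 in replicate 2), 2 of 10 let-7 genes (Mirlet7a-1 and Mirlet7c-2, both higher in replicate 1) and 0 of 7 progenitor genes. With scaling by total counts, 1 of 19 neuronal and 1 of 10 let-7 genes lay past 2-fold, as Mir128-1, Mir128-2 and Mirlet7a-1 fell short. Over all genes, 53 of 360 lay past 2-fold with that scaling, against 44 of 360 with TMM. Mesenchymal genes had a median of -1.64, with 5 of 8 past 2-fold and higher in replicate 2, namely Mir143, Mir145a, Mir199a-2, Mir199b and Mir214. Endothelial genes had a median of -0.82, with Mir221 past 2-fold of 3. Blood genes had a median of -0.24, with Mir223 higher in replicate 2 and Mir486 in replicate 1 of 7. Whether the family differed from these lists was not tested.

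The place of the miR-29b genes was set beside other genes whose mature arms have exact copies. Symbols of 916 counted genes matched the RefSeq mature entries. Only arms listed there were compared, and some genes had 1 listed arm. Mir29a and Mir29c were among 829 genes with no listed arm identical to one of another gene, of which 260 (31.4%) were detected. Mir29b-1 and Mir29b-2 were among 53 genes with 1 shared and 1 distinct arm, of which 36 (67.9%) were detected, at a median of 35.2 CPM over the 53. In this class 42 genes stood above Mir29b-1 and 43 above Mir29b-2. Another 34 genes had a shared sequence at every listed arm, and 6 of these (17.6%) were detected. Of these 6, Mir9-3 (1741 and 1784 counts, 517.3 CPM in mean) and Mirlet7c-2 (1984 and 1035 counts, 453.6 CPM) had 2 listed arms, both shared, and the others had 1 listed arm. Mir9-2 also had 2 listed arms, both shared, with 5 and 4 counts, and was not detected. Mir9-3, Mirlet7c-2 and Mir9-2 were chosen with their values in view. In counts, the miR-29b genes were among the lower ones of their own class, in which most genes were detected. Whether shared arms lowered the counts of Mir9-3, Mirlet7c-2, Mir9-2 or the miR-29b genes was not tested. The classes were not matched in other traits, and why their detected shares differ was not tested. Gene counts do not tell which arm the reads came from.

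**Figure D5:**
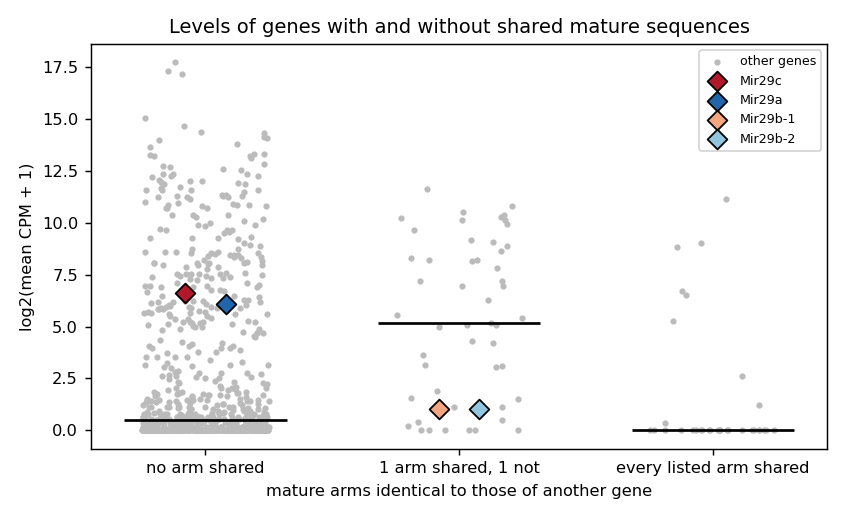
Log2(mean CPM + 1) for 916 genes in 3 classes by how many listed mature arms are identical to those of another gene. Class medians are black lines, and points are spread sideways for legibility. Mir29c and Mir29a lie in the class with no shared arm, and both miR-29b genes lie near 1 CPM, below the median of 35.2 CPM of the class with 1 shared arm.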

How the data were processed

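The authors deposited raw read counts per miRNA gene, 1 table per library, derived from alignments to mm10 with annotation M4, per the labels and the notes deposited beside each table. The aligner, trimming and read filters are unnamed there. Of 3 count columns (either strand, sense strand, other strand, a reading taken from the values) the sense column was used. The 4 rows that name no gene stayed out of all totals.

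Symbols, positions and overlapping genes came from GENCODE M21 (GRCm38), matched by Ensembl identifier without version for 1894 of 1973 genes. Identifier versions of Mir29b-1 and Mir29b-2 differ between the tables and M21, so their gene limits may differ too. Sequences came from RefSeq on GRCm38.p6. All 4 members had entries there.

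CPM, ratios and intervals were computed here. Libraries were scaled with TMM in edgeR 4.0.16 under R 4.3.3, on genes with at least 10 counts in 1 library. DESeq2 1.42.0 size factors, total counts, other strands, filters and prior counts served as alternatives. Called means at least 2-fold, with no p-value, since 1 library per dam leaves no residual degrees of freedom. The scaling and ratios were also run on simulated counts with planted changes, equal in number in both directions. The simulation held counting error only, so it does not test the calls against spread between litters. Intervals used scipy 1.17.1.

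Named genes were the 4 members, up to 3 members of each of 6 lists with the highest mean CPM, the 3 genes nearest in level to each detected member, and the most abundant gene. Genes named beyond this, among them those past 2-fold or below Mir29c in a list, were chosen after their values were seen. Members and lists were chosen with earlier results of these data known. Of the lists, Mir9-1, Mirlet7e, Mirlet7f-1, Mir126b and Mir142 were not analysed here. Whether reads are independent molecules is unknown, as no molecular identifiers are stated.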

Additional observations from a re-analysis of the deposited data

How the results depend on the processing

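Depth limits the miR-29b genes, at 7 counts each over both libraries, and reads at several positions limit every statement on miR-29b. Per 1000000 of all reads in the tables, levels fell to 35.0 (Mir29a), 51.8 (Mir29c), 0.549 (Mir29b-1) and 0.535 (Mir29b-2), and the family's share to 0.00879%. These drops follow from the larger denominator. With Mir10b left out of the total, the share was 0.0213%. TMM-scaled sizes and counts on either strand moved no level by more than the SD over libraries. Leaving out 1 replicate in turn gave 60.8 to 72.2 CPM for Mir29a, 96.1 to 100.8 for Mir29c, 0.817 to 1.26 for Mir29b-1, 0.946 to 1.09 for Mir29b-2, 0.0159% to 0.0175% for the family and 1.40 to 1.58 for Mir29c over Mir29a. Ratios between libraries need both, so none could be recomputed with 1 left out.

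The ratio of each member stayed within its counting interval under total counts, DESeq2 size factors, counts on either strand and a prior count of 5, and with both miR-29b genes summed (0.42). With total counts Mir29c (-0.07), Mir29b-2 (-0.15) and the summed family (-0.13) changed sign. Genes past 2-fold numbered 44 of 360, and 53 of 360 with total counts. They numbered 229 of 678 without a filter and 20 of 265 with at least 100 counts in 1 library. With total counts, 1 neuronal, 1 let-7 and 2 endothelial genes were past 2-fold, and with at least 100 counts 1 blood gene.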
